A study of Homo sapiens with 22 samples.

Results

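The RTN4 locus is taken here as a window of 400 kb on chromosome 2, chr2:54850001-55250000 of the human genome build hg38. It holds the gene RTN4, the ends or whole bodies of its neighbours EML6, CLHC1, RPS27A and MTIF2, and the region upstream of RTN4. Every insertion in the window was a member, 40337 of the 52121198 insertions in 20 Calling Cards libraries. The window was chosen by its insertion density and by the difference of that density between helpers, so neither is a finding here. Both are given as a description, and test calls on the helper contrast stand only as counts beside the genome's share, with nothing read from them. Orientation, reads per insertion, barcodes and the bases beside each insertion were not used to choose it.

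All libraries came from K562, an established human leukemia cell line. Cells received a barcoded self-reporting piggyBac transposon carrying puromycin resistance, with a helper plasmid that supplied the transposase. Each transfection used 5 µg of donor and 5 µg of helper, cells were kept under puromycin at 2 µg/ml for 11 days, and RNA was isolated from 3 transfections together. A library therefore pools 3 transfections, and p-values measure the spread between such pools. The hyPBase group had 10 libraries (WTHYPB in the labels) and the hyPBase-centrip group had 10 (WTHYPBcentrip), and the only labelled difference is the helper. The sources used here do not say how hyPBase-centrip differs from hyPBase. Libraries held 1509672 to 3596762 insertions with 2.23 to 5.39 reads per insertion, and every insertion lay on a TTAA. For 2 further libraries the labels name different helpers, and they were not used. CDKN2A, which is deleted in K562, held 1 insertion at its 220 TTAA sites over the 20 libraries.

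The piggyBac transposase inserts at TTAA tetranucleotides. A self-reporting transposon is transcribed into the flanking genome, and the transcript gives the position. RTN4 encodes Nogo, a reticulon that shapes tubules of the endoplasmic reticulum and is known in the nervous system as a myelin inhibitor of axon growth.

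RTN4 lies on the minus strand at chr2:54972187-55112621, a length of 140.4 kb. Its main starts lie in a cluster, of which the most upstream is at position 55050828, and transcript RTN4-209 begins at a distal start at position 55112621. The gene was therefore divided into the part downstream of the main starts and the 5′ part between the main and the distal start. The upstream region ran from the distal start to CLHC1, at position 55172547. These limits follow the GENCODE annotation. RefSeq places RTN4 start 7 at position 55051272, before the most upstream main start of GENCODE. Its RTN4 start 8 is at position 55137831, within the upstream region, so that region lies outside RTN4 only by GENCODE.

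The window held 2787 TTAA sites, of which 2134 (76.6%) had an insertion, and 14.5 insertions per TTAA site with all libraries pooled. The genome mean was 2.74 and the window thus held 5.29 times as many. A 2 kb bin was called dense at 9.72 insertions per TTAA site, the 95th percentile of 1319326 bins with at least 5 TTAA sites, and 55 of the 200 bins passed. The dense bin nearest to this threshold held 10.4 insertions per TTAA site and the bin nearest below it held 9.70. Of the dense bins 52 fell in 7 stretches, which were named after what they overlap. The stretches covered 116 kb (29.0% of the length) and 24.9% of the TTAA sites, and held 78.9% of the insertions.

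The 2 TTAA sites with the most insertions in each stretch, 14 in all, are shown because they carry the largest counts of their stretch. They are not the 14 largest of the window. They are written on the plus strand with the TTAA in capitals and 13 bases on each side.
EML6 stretch site 1, chr2:54955729-54955758: ggagccagggcttTTAAacaagctcccgag
EML6 stretch site 2, chr2:54956173-54956202: agcgtccatgaaaTTAAaacaaggaaaata
main-start stretch site 1, chr2:55052842-55052871: gttctgaaattccTTAAtgataagtttcac
main-start stretch site 2, chr2:55052265-55052294: tcaatgcgttatgTTAAtaataatagagga
intron stretch site 1, chr2:55087891-55087920: cctaataactttcTTAAataagttttccaa
intron stretch site 2, chr2:55088012-55088041: tagtgttctttatTTAAgcggggcctgggg
distal-start stretch site 1, chr2:55111797-55111826: cactgaaatgtccTTAAaaaatctacctca
distal-start stretch site 2, chr2:55100053-55100082: ctaatctgctactTTAAatgatgcaatact
upstream stretch site 1, chr2:55133882-55133911: gaaagcaagtttaTTAAgtaaaggaatgaa
upstream stretch site 2, chr2:55133700-55133729: gctctcaccgtccTTAAcatagcccctgcc
CLHC1-end stretch site 1, chr2:55166255-55166284: ttcttaaagacctTTAAagagcactccaaa
CLHC1-end stretch site 2, chr2:55171836-55171865: caaaaagcttcatTTAAagttgatggaggc
RPS27A stretch site 1, chr2:55231859-55231888: atttttcaacataTTAAagcgtgtcacact
RPS27A stretch site 2, chr2:55235635-55235664: aaaagaatggtttTTAAgcaccaaattgat

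Most of these sites lay in introns or between genes. The EML6 pair lay in an intron of EML6, and the main-start, intron and distal-start sites lay in introns of RTN4. The upstream and CLHC1-end sites lay in no gene annotated in GENCODE. RPS27A stretch site 1 lay in an intron of CLHC1 and site 2 in a UTR of RPS27A. In 4 of the 14 sites the tetranucleotide was part of TTTAAA.

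Upstream stretch site 1 had 639 insertions, with 25 in the lowest library, a median of 32.0 and 37 in the highest. A library could record 42 lines at a site, from 2 orientations and the 21 barcodes that each made up at least 0.5% of the window's insertions. The counts at the densest sites thus came close to this ceiling, and 6 sites had more than 500 insertions. The ceiling is 21 lines in each orientation, so near it the recorded share of an orientation is held toward 50%. Main-start stretch site 1 had 595 insertions (9 to 35 per library, median 31.0) and distal-start stretch site 1 had 608 (24 to 36, median 31.0). These 3 sites, all near the ceiling, had 52.7%, 52.3% and 48.2% of their recorded insertions in minus orientation. CLHC1-end stretch site 1 had 111 insertions, of which 96.4% were in plus orientation. At intron stretch site 1, 89.7% of 194 insertions were in minus orientation. EML6 stretch site 1 had 514 insertions, 74.5% of them in minus orientation, and 13.5 reads per insertion. In all, 139 sites were hit in each of the 20 libraries and held 56.2% of the window's insertions.

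Both upstream stretch sites lie in 212 bases that are intergenic in GENCODE. They are shown here because they hold 1160 insertions at 2 TTAA sites, which are in capitals. RTN4 start 8 of RefSeq lies further upstream on the minus strand, at position 55137831.
Upstream pair, chr2:55133700-55133911: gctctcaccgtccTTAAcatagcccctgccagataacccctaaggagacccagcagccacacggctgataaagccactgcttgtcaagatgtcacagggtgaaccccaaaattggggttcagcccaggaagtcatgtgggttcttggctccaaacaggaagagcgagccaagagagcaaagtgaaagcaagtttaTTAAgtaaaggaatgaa
This sequence holds 1 AGATAA motif, the form bound by GATA factors such as the erythroid factor GATA1, and no TGACTCA on either strand.

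The 250 bases before 4 RTN4 starts are shown because each of these starts lies in a dense stretch and none of these bases is in a GENCODE exon. They are written along RTN4, with 4 searched motifs in capitals. The sequences before starts 2, 7 and 8 come from RefSeq (GRCh38.p14), and that before the distal start from hg38 at the GENCODE start.
Before RTN4 start 2, chr2:55048667-55048916: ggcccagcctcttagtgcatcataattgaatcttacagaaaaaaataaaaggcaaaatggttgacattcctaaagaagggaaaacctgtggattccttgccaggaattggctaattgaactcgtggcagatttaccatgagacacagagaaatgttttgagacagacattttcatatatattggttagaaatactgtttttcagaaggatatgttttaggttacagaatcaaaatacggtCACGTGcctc
Before RTN4 start 7, chr2:55051273-55051522: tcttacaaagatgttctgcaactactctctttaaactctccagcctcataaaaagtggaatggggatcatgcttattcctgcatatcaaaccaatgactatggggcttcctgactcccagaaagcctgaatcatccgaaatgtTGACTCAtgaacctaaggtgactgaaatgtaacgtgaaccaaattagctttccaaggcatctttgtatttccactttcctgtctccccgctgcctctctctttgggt
Before the distal start, chr2:55112622-55112871: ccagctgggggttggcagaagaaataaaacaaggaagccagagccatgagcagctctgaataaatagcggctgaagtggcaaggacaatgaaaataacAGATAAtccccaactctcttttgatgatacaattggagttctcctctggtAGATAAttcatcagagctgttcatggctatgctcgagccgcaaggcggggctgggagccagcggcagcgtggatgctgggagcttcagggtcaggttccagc
Before RTN4 start 8, chr2:55137832-55138081: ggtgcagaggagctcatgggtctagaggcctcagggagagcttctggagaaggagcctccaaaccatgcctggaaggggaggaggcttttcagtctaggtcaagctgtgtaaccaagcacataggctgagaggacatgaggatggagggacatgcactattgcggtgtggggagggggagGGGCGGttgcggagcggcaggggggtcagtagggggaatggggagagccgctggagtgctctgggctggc

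Both strands were searched. AGATAA is the motif of GATA factors. TGACTCA is that of AP-1, a factor of growth and stress signals. GGGCGG is the GC box of SP1. CACGTG is the E box of basic helix-loop-helix factors. Of the 35116 human promoters in RefSeq, 9.17% held the GATA motif in these 250 bases, 4.20% held the AP-1 motif, 42.6% the GC box and 6.34% the E box. The bases before the distal start held the GATA motif at 2 positions, those before start 7 the AP-1 motif, those before start 8 the GC box and those before start 2 the E box. The distal start had 222.5 insertions per TTAA site within 1 kb, at 6 sites, and 44.1% of these were in minus orientation. Start 7, at position 55051272 and upstream of the main starts of GENCODE, had 139 per TTAA site at 12 sites. Start 8, at position 55137831 in an exon of the long noncoding RNA ENSG00000290071, had 56.2 at 6 sites. Start 2, at position 55048666, had 9.67 per TTAA site at 6 sites, and 0% of these insertions were in minus orientation. A TTAA at 217 bases before start 7 alone held 478 insertions, 49.8% in minus orientation. In contrast, start 1, at position 55010272 inside the gene, had 2.88 insertions per TTAA site at 24 sites and lay in no stretch. AGATAA was found at 0.714 to 1.40 per kb in the 7 stretches, at 0.895 per kb in the window and at 0.857 per kb on chromosome 2, so the stretches lay on either side of the chromosome's value.

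**Figure D1:**
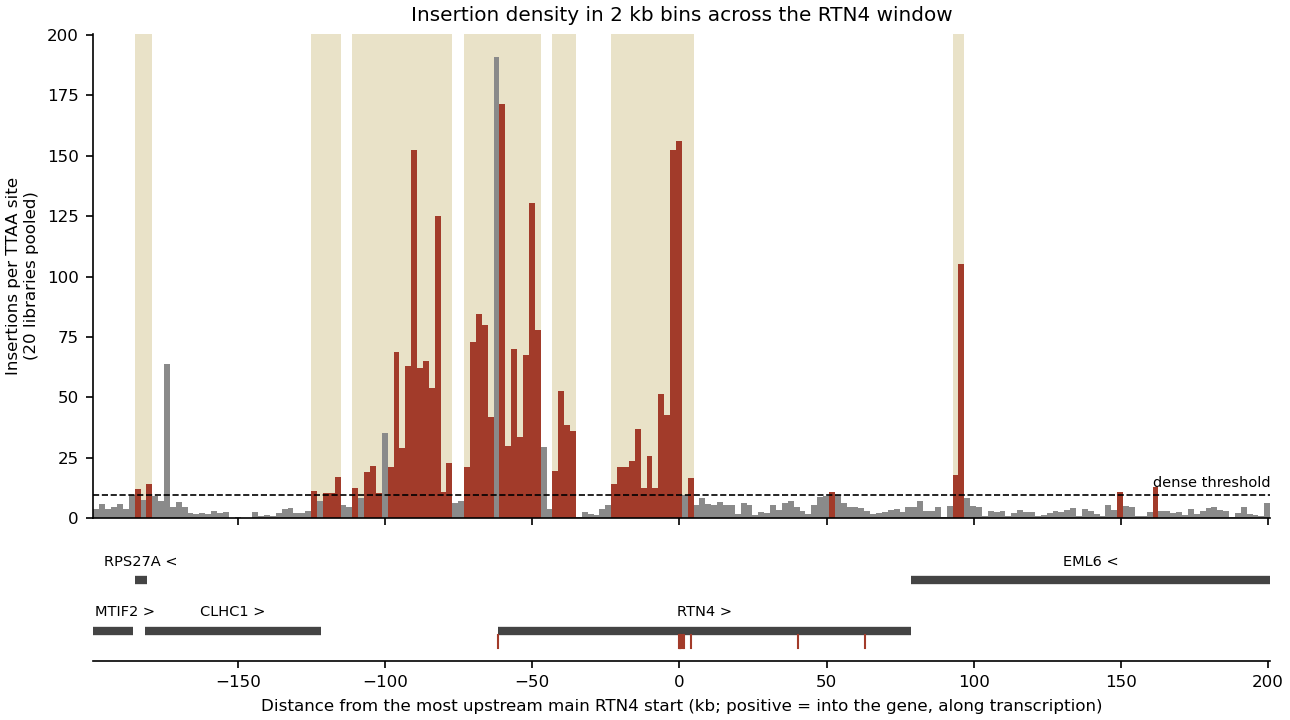
Insertions per TTAA site (linear vertical axis, 20 libraries pooled) in 2 kb bins against the distance from the most upstream main RTN4 start in kb. Dense bins are red and other bins gray, the 7 stretches are shaded, the dashed line is the dense threshold of 9.72, and the lower map shows genes with arrowheads for direction and red ticks for starts of coding RTN4 transcripts. Density is high from the main start outward and low in the gene downstream of it, and gray bins above the line hold fewer than 5 TTAA sites.

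Density was highest from the main starts outward and dropped within the gene. The 5′ part of RTN4 held 19248 insertions at 45.5 per TTAA site, which is 16.6 times the genome mean, and 87.7% of its 423 TTAA sites were hit. The upstream region held 11137 insertions at 40.1 per TTAA site. Downstream of the main starts RTN4 held 3804 insertions at 5.17 per TTAA site, 1.89 times the genome mean, with 736 TTAA sites of which 77.3% were hit. The 5′ part thus held 47.7% of the window's insertions and the longer downstream part 9.43%.

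The distal-start stretch was the densest, with 12099 insertions at 74.7 per TTAA site over 26.0 kb, and 30.0% of all insertions in the window. Its bin at chr2:55110001-55112000 reached 171.5 insertions per TTAA site. The next bin toward CLHC1 held 191 per site but had 3 TTAA sites, fewer than the 5 that a call required. The main-start stretch held 8658 insertions at 44.2 per TTAA site over 28 kb. The upstream stretch, the longest at 34.0 kb, held 7434 insertions at 46.5 per TTAA site. The intron stretch, within the long intron between the distal and the main starts, held 1467 at 35.8, and the EML6 stretch held 950 at 39.6 within 4.00 kb. The CLHC1-end and RPS27A stretches were sparser, with 11.0 and 11.2 per TTAA site.

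As a whole, RTN4 held 23052 insertions at 19.9 per TTAA site and ranked 129 of 10861 protein-coding genes with at least 100 TTAA sites. The genes next above it were THAP2 (19.95), ENSG00000288710 (19.9) and PFKFB2 (19.9), and those next below were METAP1D (19.9), MR1 (19.7) and RHOBTB3 (19.7). In 8 to 10 of the 20 libraries each of them was above RTN4. They were picked for a pooled density next to that of RTN4, so nothing is read from these counts. Of the other genes in the window, RPS27A, which encodes a ubiquitin and ribosomal protein fusion, held 10.5 insertions per TTAA site over its full length. MTIF2, a mitochondrial translation factor, held 4.18, CLHC1 4.13 and EML6, a gene of the microtubule-binding EML family, 3.45.

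Orientation changed along the locus. RTN4 is on the minus strand, so an insertion in minus orientation is on the same strand as the gene. In hyPBase libraries the same-strand share in RTN4 was 44.2% in the lowest library, 46.0% at the median and 48.5% in the highest. In hyPBase-centrip libraries it was 40.1%, 42.4% and 44.4%. All 20 values lay below 50%. The mean deviation from an even share was -3.66 ± 1.49 percentage points (SD, n = 10) for hyPBase and -7.63 ± 1.42 points (SD, n = 10) for hyPBase-centrip, each with an adjusted p of 0.00244 by a two-sided exact sign-flip permutation test. The smallest p that this test allows with 10 libraries is 0.00195, which became 0.00244 after Benjamini-Hochberg adjustment over the 30 tests of this kind. With barcodes collapsed to 1 insertion per position and orientation in each library, the deviations were -8.50 and -12.65 points (exact sign-flip test, adjusted p = 0.00255 for both).

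In the other protein-coding genes of 1 strand only, the same-strand share was lower, with a mean of 32.5% ± 0.424 (SD) over 10 hyPBase libraries and 33.8% ± 0.26 over 10 hyPBase-centrip libraries. RTN4 was 13.9 ± 1.57 points above them with hyPBase and 8.59 ± 1.38 points above with hyPBase-centrip, in 10 of 10 libraries each (exact sign-flip test, adjusted p = 0.00244 for both). With barcodes collapsed RTN4 was 7.88 and 2.44 points above them (exact sign-flip test, adjusted p = 0.00255 for both). Of 4902 genes with at least 1000 insertions, 82.9% had a lower same-strand share than RTN4, and the 5th to 95th percentiles were 11.5% to 50.3%. The ceiling holds shares at dense sites toward 50%, and density chose RTN4. ENSG00000288710, METAP1D and MR1, genes of like density that no coding gene of the other strand overlaps, had 33.4%, 41.0% and 49.0%. RTN4 had 44.3% over all libraries. Whether it differs from genes of like density was not tested.

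This intermediate share combined parts with different recorded orientation. Downstream of the main starts the mean same-strand share of the hyPBase libraries was 15.1% ± 3.55 and that of the hyPBase-centrip libraries 14.6% ± 1.46 (SD, 10 libraries each). In the 5′ part it was 50.7% ± 1.58 and 49.5% ± 1.43. No library's value for the downstream part, at most 21.8%, came near the lowest value in the 5′ part, 46.9%. The downstream part was lower by 35.6 ± 3.65 points with hyPBase and by 34.9 ± 2.09 points with hyPBase-centrip, in 10 of 10 libraries of each helper (exact sign-flip test, adjusted p = 0.00244). This comparison was added after the pattern had been seen. The 5′ part held 4.57 insertions per hit site and library and the downstream part 1.40. The ceiling on lines, which holds recorded shares toward 50%, thus bears more on the 5′ part. Shares at sites with few insertions are not given here, and how much of the difference the ceiling made was not tested. Over all libraries 14.9% of downstream insertions were on the gene's strand, and 9.85% of the 4902 genes had a lower share over their whole length.

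Beyond the distal start the insertions were mostly in plus orientation, opposite to the strand of RTN4. The minus-orientation share in the upstream region averaged 26.3% ± 1.51 for hyPBase and 27.9% ± 1.88 for hyPBase-centrip (SD of 10 libraries). The RTN4 body had 20.03 ± 2.19 and 14.5 ± 2.69 points more, in 10 of 10 libraries (exact sign-flip test, adjusted p = 0.00244). With barcodes collapsed the body had 10.3 and 5.05 points more (adjusted p = 0.00255 and 0.00469, exact sign-flip tests). Without the dense stretches the sign turned, and the difference was -2.36 points with hyPBase (adjusted p = 0.497, exact sign-flip test) and -9.84 points with hyPBase-centrip (adjusted p = 0.158, exact sign-flip test). The difference between the body and the upstream region therefore rested on the stretches. In the EML6 part of the window, which is transcribed from the plus strand, 79.7% ± 2.41 and 75.7% ± 3.52 of insertions were in minus orientation, again opposite to the gene.

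**Figure D2:**
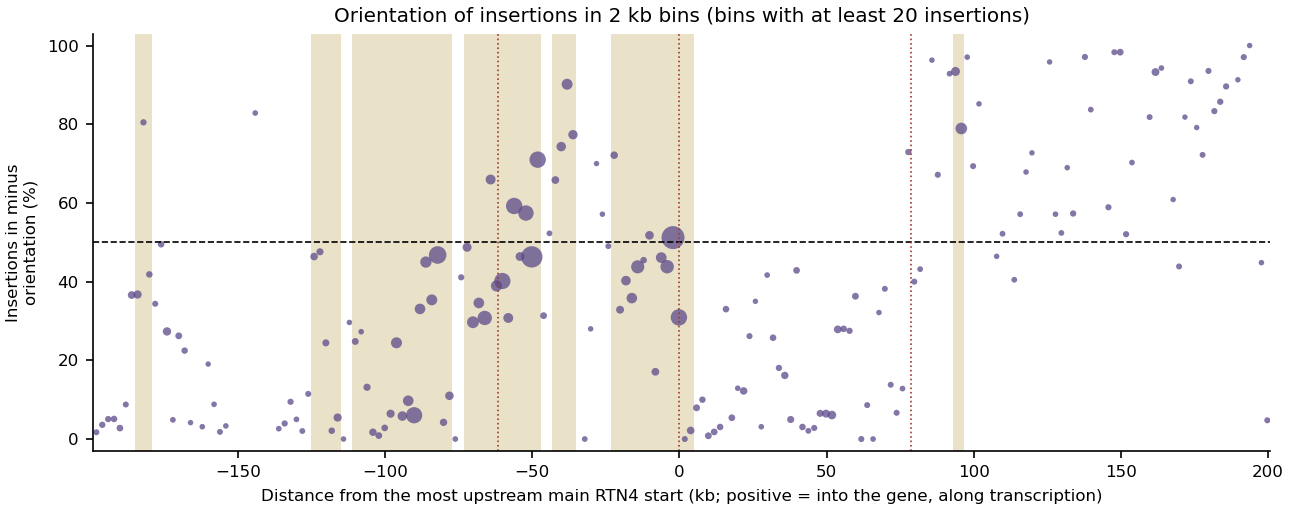
Percent of insertions in minus orientation in each 2 kb bin with at least 20 insertions (176 bins, 20 libraries pooled) against the distance from the most upstream main RTN4 start in kb. Point area grows with the number of insertions, stretches are shaded, dotted lines mark the distal start, the main start and the end of RTN4, and the dashed line is 50%. Shares lie mostly under 50% in the gene downstream of the main start, around 50% near the distal start and above 50% in EML6.

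The stretches differed in orientation from each other. The EML6 stretch had 86.2% ± 3.44 of its insertions in minus orientation with hyPBase and 82.5% ± 5.15 with hyPBase-centrip. The intron stretch, inside RTN4, was mostly on the gene's strand, with 82.9% ± 4.75 and 76.8% ± 3.46. The main-start stretch was moderately below an even share, at 43.1% ± 2.21 and 41.5% ± 2.08. In the upstream stretch the share was 22.7% ± 1.45 and 25.2% ± 1.89, and in the CLHC1-end stretch 24.3% ± 7.54 and 25.6% ± 5.47. In each of these 5 stretches all 10 libraries of each helper lay on 1 side of 50% (exact sign-flip test, adjusted p = 0.00244). With barcodes collapsed the intron stretch lay 19.03 and 12.8 points above 50%, against 32.9 and 26.8 points with each barcode counted. The CLHC1-end stretch with hyPBase then deviated by -15.3 points, against -25.7.

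The distal-start stretch was close to even, at 48.3% ± 2.26 with hyPBase and 48.1% ± 2.40 with hyPBase-centrip. Its deviation of 1.72 points below 50% had an adjusted p of 0.0419 with hyPBase, and that of 1.93 points below had 0.0248 with hyPBase-centrip, by exact sign-flip tests with 8 of 10 libraries below 50% in each. With barcodes collapsed, both deviations turned positive (0.17 and 0.48 points, adjusted p = 0.885 and 0.486, exact sign-flip tests). In the RPS27A stretch, with 425 insertions in all, the spread was wide. Its share was 49.3% ± 12.3 with hyPBase and 45.3% ± 13.4 with hyPBase-centrip (adjusted p = 0.867 and 0.307, exact sign-flip tests, n = 10 each).

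**Figure D3:**
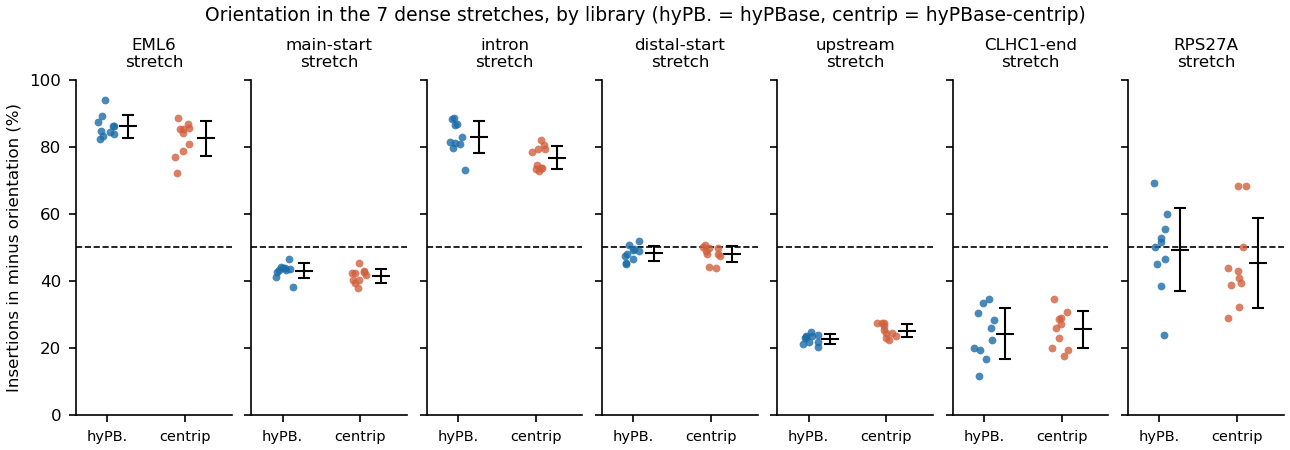
Percent of insertions in minus orientation in the 7 dense stretches, with a point for each library, 10 hyPBase (blue) and 10 hyPBase-centrip (orange), and the mean with SD in black. The EML6 and intron stretches lie above the dashed 50% line, the main-start, upstream and CLHC1-end stretches lie below it, and the distal-start and RPS27A stretches straddle it.

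Recorded insertions in the window had more reads each than those elsewhere. The mean was 5.05 ± 1.16 reads per insertion in the window against 3.87 ± 0.732 in the rest of the library for hyPBase, and 3.58 ± 0.808 against 3.00 ± 0.54 for hyPBase-centrip (SD of 10 libraries). The log2 ratio was 0.37 ± 0.08 and 0.24 ± 0.09, higher in 10 of 10 libraries of each helper (exact sign-flip test, adjusted p = 0.00244). Reads are PCR copies without molecular identifiers and do not count molecules. A recorded insertion holds all reads of 1 position, orientation and barcode, and such lines can saturate at dense sites. Reads per insertion can therefore depend on density, which chose the window. This was not tested for the window against the rest.

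Within RTN4 the read support followed the same division as the orientation. Downstream insertions had 2.72 ± 0.492 reads with hyPBase and 2.19 ± 0.318 with hyPBase-centrip, and insertions in the 5′ part had 5.02 ± 1.23 and 3.58 ± 0.774. The log2 ratio of the downstream over the 5′ part was -0.86 ± 0.15 and -0.69 ± 0.15, below 0 in 10 of 10 libraries (exact sign-flip test, adjusted p = 0.00244). At TTAA sites with at most 100 insertions it was -0.67 and -0.47. The EML6 stretch had the most reads per insertion of the 7, with 9.02 ± 2.10 and 8.25 ± 2.13. This comparison of the parts was also added after the values had been seen.

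The barcodes of the insertions were compared by their effective number. In the window 23 barcodes were found, and the most frequent made up 10.3% of the insertions. The effective number of barcodes, the inverse Simpson index, was 16.3 ± 0.487 in the window and 16.6 ± 0.0594 in the rest for hyPBase, and 16.6 ± 0.287 and 16.98 ± 0.0751 for hyPBase-centrip (SD of 10 libraries). The difference was -0.36 ± 0.44 (adjusted p = 0.026, 8 of 10 libraries lower, exact sign-flip test) and -0.42 ± 0.30 (adjusted p = 0.00469, 9 of 10 lower, exact sign-flip test). The index is lower by construction where there are fewer insertions. In its unbiased form the difference was -0.23 with hyPBase (adjusted p = 0.146, exact sign-flip test) and -0.29 with hyPBase-centrip (adjusted p = 0.0141, exact sign-flip test).

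Within the window TTAA sites inside TTTAAA were hit more often than others. There were 582 such sites, 20.9% of the total. They held 1.67 ± 0.0666 times as many insertions per site as the other sites for hyPBase and 1.71 ± 0.0645 times for hyPBase-centrip (SD of 10 libraries). The log2 ratio was above 0 in 10 of 10 libraries of each helper (0.74 and 0.78, exact sign-flip test, adjusted p = 0.00244). On chromosome 2 as a whole the ratio was 1.92 ± 0.0115 and 1.92 ± 0.0118. The highest library in the window, at 1.82, was below the lowest on chromosome 2, at 1.90, a comparison that was not tested. The ceiling on lines also limits insertions per site where density is high. With barcodes collapsed the log2 ratio in the window was 0.54 with hyPBase and 0.57 with hyPBase-centrip (exact sign-flip test, adjusted p = 0.00255 for both).

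The helpers differed in opposite directions in the parts of RTN4. This contrast was used to choose the locus, and the values are given as a description in insertions per 1000000 insertions of the library (CPM). Over the genome, 0.635% of 108812 bins of 2 kb were called between helpers by the edgeR quasi-likelihood test (0.46% lower and 0.175% higher with hyPBase-centrip). The 5′ part had 369.5 CPM in the lowest hyPBase library, 418 at the median and 432 in the highest. With hyPBase-centrip it had 303, 334 and 363 CPM, and the groups did not overlap. The share of regions over the genome without overlap is not given here, so nothing is read from overlap in this or later comparisons. The mean was 414 ± 17.9 CPM with hyPBase and 332 ± 17.3 with hyPBase-centrip, a log2 ratio of hyPBase-centrip over hyPBase of -0.32 ± 0.03 (SE). Downstream of the main starts the order was the opposite, also without overlap. There the hyPBase libraries had 49.7, 56.9 and 66.2 CPM and the hyPBase-centrip libraries 76.3, 88.0 and 94.2 CPM (lowest, median and highest). The mean was 57.6 ± 5.10 against 85.6 ± 5.43 CPM, a log2 ratio of 0.57 ± 0.05 (SE).

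In the upstream region the hyPBase libraries had 206, 236 and 266 CPM and the hyPBase-centrip libraries 179.7, 194 and 238 CPM. The groups overlapped, with 8 of 10 hyPBase-centrip libraries below every hyPBase library, and the log2 ratio was -0.27 ± 0.05 (SE). The EML6 part of the window was alike in both groups, with 61.6 and 66.7 CPM at the median and overlapping ranges. Its log2 ratio was 0.06 ± 0.04 (SE). The ratio was -0.15 ± 0.06 in CLHC1 and 0.14 ± 0.10 from RPS27A to the end of the window, both with overlap.

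**Figure D4:**
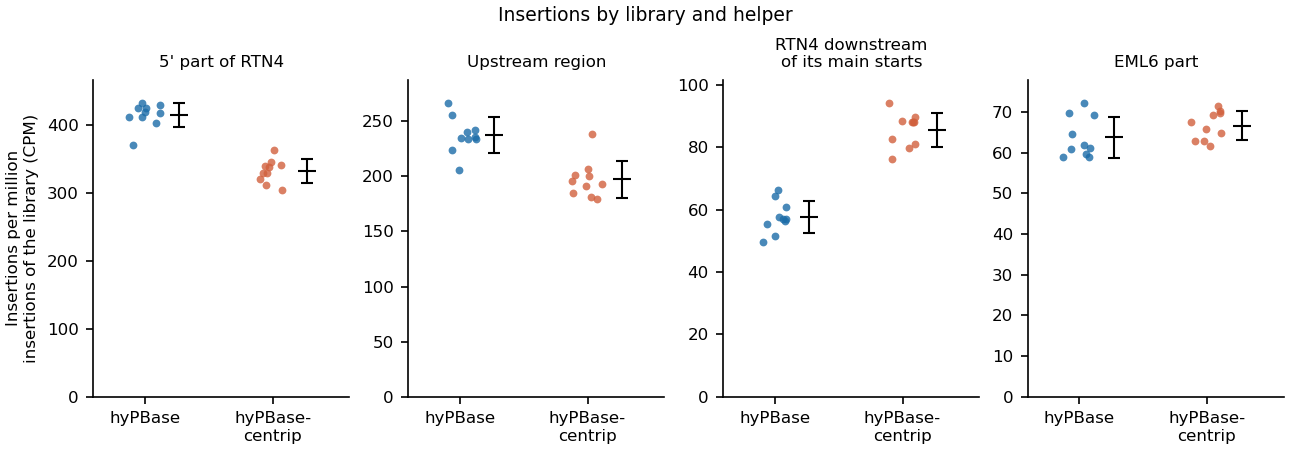
Insertions per 1000000 insertions of the library (CPM, axes from 0) in 4 parts of the window, with a point for each of 10 hyPBase (blue) and 10 hyPBase-centrip (orange) libraries and the mean with SD in black. The 5′ part of RTN4 is lower with hyPBase-centrip and the part downstream of the main starts is higher, both without overlap, while the upstream region and the EML6 part overlap.

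Because these parts moved in opposite directions, whole RTN4 showed a smaller ratio, -0.18 on the log2 scale. It had 436, 475 and 484 CPM with hyPBase and 392, 415 and 451 CPM with hyPBase-centrip (lowest, median and highest). The downstream increase was in both orientations, at a log2 ratio of 0.51 ± 0.16 (SE) for minus and 0.58 ± 0.04 (SE) for plus insertions. The decrease in the 5′ part was likewise in both, at -0.35 ± 0.04 and -0.29 ± 0.04. The stretches in and upstream of RTN4 were lower with hyPBase-centrip. The log2 ratio was -0.30 ± 0.04 (SE) in the main-start stretch, -0.31 ± 0.09 in the intron stretch, -0.31 ± 0.05 in the distal-start stretch and -0.27 ± 0.05 in the upstream stretch. With barcodes collapsed these ratios were -0.21, -0.10, -0.22 and -0.18 in the same order. In the main-start stretch the groups did not overlap, with 168, 184 and 199.7 CPM against 125, 152 and 165 CPM. The distal-start stretch had 223, 261 and 289.7 CPM against 177, 210.3 and 237 CPM, with 7 of 10 hyPBase-centrip libraries below every hyPBase library.

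The bins of 2 kb are parts of these same sums, and their directions are given as a description. Downstream of the main starts 35 of 39 bins of 2 kb had more CPM with hyPBase-centrip, at a median log2 ratio of 0.65. In the 5′ part 25 of 31 bins had less, at a median of -0.28, and in the upstream region 28 of 30, at -0.24. These counts include bins with too few insertions to be tested. Over the genome the edgeR log2 ratio was below 0 in 50.4% of the 108812 tested bins. That share leaves out sparse bins and uses edgeR ratios, so it is not a like measure for these counts. A share of CPM directions over all bins of the genome is not given here, so nothing is read from these counts. In the edgeR test, which called 0.635% of bins over the genome, 82 bins of the window were tested and 11 were called, all lower with hyPBase-centrip, 7 in the 5′ part and 4 in the upstream region. Since the locus was proposed from this contrast, nothing is read from that count. Of the called bins, chr2:55052001-55054000, next to the main starts, had 64.8 ± 5.33 CPM with hyPBase and 47.8 ± 3.34 with hyPBase-centrip. The bin chr2:55108001-55110000, near the distal start, had 10.2 ± 2.00 and 5.91 ± 1.47 CPM. Both were picked from the called bins, so nothing is read from the size of their differences. Downstream bins held few insertions, and 18 of 39 were tested. Of 133945 bins of 10 kb over the genome 0.415% were called, 0.32% lower and 0.0948% higher. Of these, 39 bins were in the window, with 10 called lower and 4 higher, and nothing is read from these counts.

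**Figure D5:**
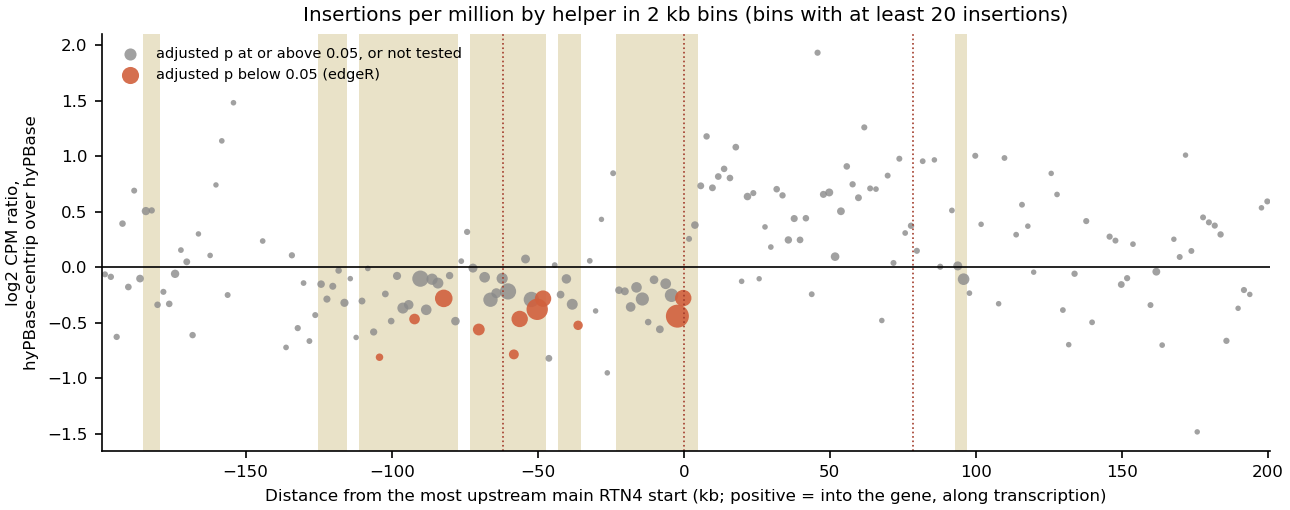
Log2 ratio of mean CPM, hyPBase-centrip over hyPBase, in each 2 kb bin with at least 20 insertions (176 bins) against the distance from the most upstream main RTN4 start in kb. Point area grows with the number of insertions, orange marks bins with an edgeR adjusted p below 0.05, shading marks stretches and dotted lines the distal start, the main start and the end of RTN4. Bins lie mostly above 0 from the main start to the end of the gene and mostly below 0 from the main start outward.

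Among the tested bins the genome-wide medians lay near 0, for dense and other bins alike. The median log2 ratio was -0.0024 over all tested bins, 0.0022 over 61793 dense bins and -0.013 over 23754 bins that were not dense, lay in protein-coding genes and were over 5 kb from a start. These medians leave out sparse bins, and only 18 of the 39 downstream bins of RTN4 were tested. With a filter of at least 1 insertion in 10 libraries the genome median was 0.071 over 738781 bins. In the window, bins outside the stretches had a median CPM log2 ratio of 0.22, with 85 higher and 55 lower with hyPBase-centrip. The ceiling on lines at dense sites bears on the CPM values as on the orientation shares. At TTAA sites with at most 100 insertions, which held 54.6% of the window's insertions, the ratio was -0.33 in the 5′ part, -0.31 in the upstream region and 0.57 in the downstream part. With barcodes collapsed it was -0.20 in the 5′ part and 0.44 in the downstream part, and whole RTN4 was at -0.00024.

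Genes with a profile like that of RTN4 were ranked by the Pearson correlation of log2 CPM over the 20 libraries, among 2083 genes with at least 100 insertions in every library. The highest were CCDC71L (r = 0.919), ANTXR2, an anthrax toxin receptor (0.845), GAB2, a signaling adaptor (0.841), CRADD, an adaptor of caspase signaling (0.824), and HBS1L, a ribosome rescue factor (0.823). The helper difference, which all 5 share in sign with RTN4, is part of these values. With the helper means removed, r was 0.773 for CCDC71L and 0.452 to 0.547 for the other 4. The libraries share depth and total, and these values are a description.

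The reticulon family, the receptors of Nogo and other genes that shape the endoplasmic reticulum were examined as a list of 25 genes. The median density of the list was 4.50 insertions per TTAA site, and that of all protein-coding genes was 3.21. RTN3, a reticulon of the same family, held 12.2, CKAP4, a protein of rough endoplasmic reticulum sheets, 11.4, ARL6IP1, a tubule-shaping protein, 11.3, and RTN4R, the Nogo receptor, 10.6. In the edgeR test across genes 2.37% of 12865 genes were called between helpers (1.55% lower and 0.816% higher with hyPBase-centrip). Of the list 18 were tested and 2 were called, both higher with hyPBase-centrip. REEP1, which shapes tubules and links them to microtubules, had 48.9 ± 4.19 CPM with hyPBase and 57.8 ± 4.66 with hyPBase-centrip, a log2 fold change of 0.22 ± 0.06 (SE, edgeR adjusted p = 0.0108). ATL1, a GTPase that fuses tubules, had 32.4 ± 2.79 and 39.2 ± 3.50 CPM, a log2 fold change of 0.26 ± 0.07 (SE, edgeR adjusted p = 0.0124). The median log2 fold change was -0.02 in the list and 0.0018 over all genes. RTN3 differed by -0.07 ± 0.04 (SE, edgeR adjusted p = 0.401).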

How the data were processed

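Bulk Calling Cards insertions were measured in 20 K562 libraries, 10 per helper. The authors deposited, per library, 1 line per insertion with its position on hg38, the raw read count behind it, its orientation and its barcode, and no value was normalized. The submitters' processing notes name Trimmomatic, BWA and SAMtools without versions or roles. Filters on insertions are not given in the sources used here. Each line was taken as 1 insertion (Python 3.11.15, numpy 2.4.6, pandas 2.3.3), so a site can hold as many lines in a library as it has orientations and barcodes, and lines can saturate at dense sites. Copy number was not corrected. Genes came from GENCODE version 44 and TTAA sites from the hg38 sequence.

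The window, the gene list and the tests were chosen with earlier results of these data known. Dense bins, stretches and segments are defined in the report. Each measure that was not used to choose the window was reduced to 1 value per library. It was tested within each helper by a two-sided exact sign-flip permutation test, with Benjamini-Hochberg adjustment over 30 tests. Insertions per 2 kb bin (at least 5 insertions in at least 10 libraries) and per protein-coding gene (at least 10 insertions in at least 10 libraries) were compared between helpers with edgeR 4.0.16 in R 4.3.3 (TMM, quasi-likelihood test, Benjamini-Hochberg adjusted p below 0.05). DESeq2 1.42.0 was an alternative. The edgeR step was tested on simulated counts. The genes named are RTN4, the genes of the window, the 3 next above and below RTN4 in density, the 5 with the most similar profile, and the called and 4 densest genes of the list. Alternatives covered the minimum number of reads, collapsed barcodes, the density percentile, bin size and offset, normalization, filters and the omission of hyPBase-centrip replicate 3. Figures were drawn with matplotlib 3.10.9.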

Additional observations from a re-analysis of the deposited data

Results flagged for a closer look

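In 96 sets of 10 libraries (the CPM, minus-orientation share and reads per insertion of each part and stretch within a helper), the highest or lowest library was compared with its nearest neighbour by Dixon's ratio. In 13 sets that library stood apart, where chance gives about 1 in 20 sets, or 4.8. The sets overlap in libraries and regions and are not independent.

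hyPBase replicate 3 was low in whole RTN4, with 435.8 CPM against 467 in the next library, in the 5′ part of RTN4 (369.5 against 403 CPM) and in the whole window (760.9 against 807 CPM). hyPBase-centrip replicate 3, the shallowest library of its helper, was high in the upstream region (238.2 against 207 CPM), the upstream stretch (160.0 against 139 CPM), the EML6 stretch (25.04 against 19.4 CPM) and the RPS27A stretch (13.4 against 9.81 CPM). hyPBase replicate 4 had the most reads per insertion in the EML6 part of the window (7.76 against 5.82), in RTN4 downstream of its main starts (3.84 against 2.95) and in the RTN4 bins outside stretches (4.36 against 3.01). hyPBase-centrip replicate 1 had the most reads per insertion in the upstream stretch (8.04 against 5.65) and in the RPS27A stretch (4.13 against 2.97). Its minus-orientation share downstream of the main starts was the lowest of its helper, 10.9% against 13.7%. Over the whole library, hyPBase replicate 4 (5.39) and hyPBase-centrip replicate 1 (3.89) also had the most reads per insertion of their helper.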

How the results depend on the processing

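Each result was recomputed under alternatives that change 1 choice at a time. With at least 2 reads per insertion the distal-start stretch deviated from an even share by -1.59 points with hyPBase (exact sign-flip adjusted p = 0.0849). With barcodes collapsed it deviated by 0.17 (hyPBase) and 0.48 points (hyPBase-centrip), and the RPS27A stretch with hyPBase by 1.65 (p = 0.749). Outside the dense stretches the body minus the upstream region gave -2.36 and -9.84 points. The unbiased barcode index gave -0.23 with hyPBase. DESeq2 called 368 of the 15989 bins that it gave an adjusted p, and a filter of at least 1 insertion in 10 libraries gave 131 (47 lower, 84 higher), against 691 with edgeR. The 99th percentile left 26 dense bins in 4 stretches. Other percentiles, read minimums, barcode handling, single helpers and shifted bins gave 50 to 77 dense bins in 6 to 9 stretches.

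The log2 CPM ratio of whole RTN4 was -0.00024 with barcodes collapsed, -0.33 in reads per 1000000 reads and -0.042 at sites with at most 100 insertions, and that of the window was -0.035, -0.30 and -0.086. The EML6 stretch turned to 0.17 in reads per 1000000 reads. The cause of these shifts was not tested. The signs of the 5′ part, the upstream region and the downstream part held in all 7 alternatives. Without hyPBase-centrip replicate 3, edgeR called 546 bins and 292 genes. Of the 11 bins of the window then called, 10 were lower and 1 was higher. Same-numbered replicates of the helpers did not deviate together (r from -0.022 to 0.042). Between libraries of different number the highest r was 0.122, for hyPBase replicate 8. With a replicate block edgeR called 612 bins and 291 genes, against 691 and 305 without it. The RPS27A stretch held 425 insertions in 20 libraries, and 18 of 39 downstream bins passed the filter on low counts. Replicates are pools of transfections of 1 cell line.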

Other observations

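A few dense places lay outside the 7 stretches. In RTN4 itself the bin chr2:54998001-55000000, far downstream of the main starts, held 279 insertions at 10.7 per TTAA site, 6.09% of them in minus orientation. In EML6 the bins chr2:54888001-54890000 and chr2:54900001-54902000 held 13 and 10.8 insertions per TTAA site, with 93.3% and 98.3% in minus orientation. These 3 isolated bins thus had the orientation opposite to the gene around them. Inside CLHC1 the bin chr2:55224001-55226000 held 64.0 insertions per TTAA site but too few TTAA sites to be ranked.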
